A study of Rattus norvegicus with 24 samples.

Results

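The hearts compared here came from Sprague-Dawley rats with mitral regurgitation (MR), a leak of the valve between left atrium and left ventricle that was made by left thoracotomy and perforation of a mitral leaflet. RNA from snap-frozen myocardium taken 20 weeks after that surgery (n = 5 libraries) was compared with RNA taken 2 weeks after it (n = 4), so 9 of the 24 libraries of the series carry the comparison. The members are the libraries with these labelled times and this surgery. They and the gene lists were chosen with earlier results of these data known. Sham rats, which had the operation without the perforation and were sampled at 2 weeks (n = 5), were measured the same way and give the background level of every gene. MR at 10 weeks (n = 5) and at 40 weeks (n = 5) is used for the later time course and in 1 alternative fit. All animals carry the same strain label, with no transgene or drug named. The labels give no age, sex, chamber or batch and do not say that each library is a separate animal, so a p-value measures the spread between these libraries. No Sham heart was sampled at 20 weeks: 18 further weeks with MR and 18 further weeks of age cannot be told apart. In bulk tissue, fewer cells of a type and less RNA per cell also cannot be told apart.

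A leaking mitral valve sends part of each beat back into the atrium, and the left ventricle is loaded with extra volume. Early overload is known to bring division of stromal and immune cells, deposition of matrix around the muscle fibres and immediate early gene activity. The adult heart otherwise takes most of its energy from fatty acid oxidation in mitochondria, and a return toward fetal genes, such as the slow myosin heavy chain Myh7, is a known mark of a loaded heart. These are background statements and not results of these data.

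Of 10029 genes tested, 398 differed between the times at a Benjamini-Hochberg adjusted p under 0.05 (limma), which is 3.97% of the genes. At 20 weeks 138 were higher (1.38%) and 260 were lower (2.59%). These shares are the background for every count of called list members below. The MR groups did not overlap in 354 of the 398 called genes and in 1053 (10.5%) of all genes tested. Absence of overlap therefore adds little to a call. Cell cycle genes, led by Mki67, matrix genes such as Col1a1 and Fn1, and interferon-response genes such as Mx2 were lower at 20 weeks. Genes of fatty acid use and uncoupling, such as Ucp3 and Cpt1b, and the slow myosin gene Myh7 were higher. The 260 falls had a median log2 difference of -0.87 and the 138 rises one of 0.73, while the median over all genes tested was -0.01. Levels are rescaled normalised read counts, in which 1 unit stands for 18.1 to 25.0 recovered reads depending on the library; they are not divided by transcript length and so are not compared between genes. Log2 differences are on the log2(value + 1) scale, with their SE, and understate the change of genes with low values. Without rescaling of the libraries the calls were 73 higher and 303 lower, so the share of rises depends on the scaling. With 1 library left out in turn the calls ranged from 155 (without MR 20 weeks replicate 4) to 464 (without MR 20 weeks replicate 1). They were 242 and 176 without MR 2 weeks replicates 2 and 3, and 172 and 181 without MR 20 weeks replicates 2 and 3. In every one of those 9 fits 116 genes were called, 26 of them higher and 90 lower at 20 weeks.

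Libraries held 8.18 to 10.4 M recovered reads on listed genes at MR 2 weeks, 9.08 to 10.0 M at MR 20 weeks and 7.69 to 9.70 M in Sham. The 11 cardiomyocyte markers tested, among them Myh6 and Pln, summed to 46920 to 60500 at MR 2 weeks and 52210 to 65790 at MR 20 weeks. None was at 0 in any library, but by the listing rule a gene needs 1 or more reads in each library, so none could be. Sham replicate 3 stood apart with high collagen and fibronectin values, and MR 2 weeks replicate 1 had the lowest Col1a1 level of its group. Both stay in the fit. With Sham replicate 3 left out, an alternative chosen after seeing the data, 596 genes were called (220 higher, 376 lower).

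The promoters of the genes that fell together are shown first, since these genes moved in 1 direction between the MR times. RefSeq (assembly GRCr8) gave a window of 250 bases before to 50 bases after the start for 7889 of the 10029 genes tested, matched by symbol. Both strands were searched for 2 motifs of cell cycle promoters, the cell cycle homology region (TTTGAA) and the CCAAT box (CCAAT). They were also searched for the E-box (CACGTG), the AP-1 site (TGANTCA) and the nuclear receptor half-site AAGGTCA. The interferon-stimulated response element (GAAANNGAAA) was added after seeing the data. With a window, 11.3% of rises and 8.25% of falls held the E-box, against 9.7% of all tested genes. The AP-1 site was in 7.55% and 7.73%, against 5.1%. It was in 2 of 32 tested immediate early genes with a window (0 of 5 called). For 3 of the 5 cell cycle genes with the smallest p the window is printed with its TTTGAA and CCAAT matches, on either strand, in capitals. No window is printed for Kif20a and Lmnb1, so the printed windows do not stand for all called cell cycle genes.

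Mki67: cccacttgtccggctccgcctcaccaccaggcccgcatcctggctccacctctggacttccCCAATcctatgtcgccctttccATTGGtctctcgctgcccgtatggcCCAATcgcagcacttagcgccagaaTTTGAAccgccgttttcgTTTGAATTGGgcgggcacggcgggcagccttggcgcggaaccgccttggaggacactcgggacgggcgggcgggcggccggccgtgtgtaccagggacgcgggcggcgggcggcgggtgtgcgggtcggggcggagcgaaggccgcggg
Cenpf: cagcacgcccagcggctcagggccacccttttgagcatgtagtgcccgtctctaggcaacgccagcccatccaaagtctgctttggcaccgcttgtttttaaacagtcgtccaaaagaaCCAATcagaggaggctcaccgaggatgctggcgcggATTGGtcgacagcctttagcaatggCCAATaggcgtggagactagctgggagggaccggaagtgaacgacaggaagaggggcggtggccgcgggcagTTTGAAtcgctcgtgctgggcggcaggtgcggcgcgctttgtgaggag
Top2a: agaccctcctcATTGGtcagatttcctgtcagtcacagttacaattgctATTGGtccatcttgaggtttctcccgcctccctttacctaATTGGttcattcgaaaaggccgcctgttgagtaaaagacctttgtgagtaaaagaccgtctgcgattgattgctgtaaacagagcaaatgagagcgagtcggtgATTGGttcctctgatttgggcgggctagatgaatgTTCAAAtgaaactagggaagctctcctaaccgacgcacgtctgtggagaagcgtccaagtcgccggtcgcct

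These windows lie at chr1:199952544-199952843, minus strand for Mki67, at chr13:103760837-103761136, minus strand for Cenpf and at chr10:84473044-84473343, minus strand for Top2a, and each is written along its gene. Counted from the start, the TTTGAA match of Top2a covers bases -22 to -17 and its nearest CCAAT match covers -57 to -53. Mki67 holds TTTGAA at -117 to -112 and at -99 to -94, the latter sharing a base with CCAAT at -94 to -90. In Cenpf the TTTGAA match lies just after the start, at 3 to 8. Among the 20 called cell cycle genes with a window, 13 held TTTGAA and 18 held CCAAT, against 10.9% and 38.6% of all tested genes with a window. Of the 32 list members tested that have a window, called or not, 16 held TTTGAA and 26 held CCAAT.

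Of the 5 interferon-response genes with the smallest p, 4 have a window, printed with GAAANNGAAA matches in capitals. The fifth is Mx2.

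Tap1: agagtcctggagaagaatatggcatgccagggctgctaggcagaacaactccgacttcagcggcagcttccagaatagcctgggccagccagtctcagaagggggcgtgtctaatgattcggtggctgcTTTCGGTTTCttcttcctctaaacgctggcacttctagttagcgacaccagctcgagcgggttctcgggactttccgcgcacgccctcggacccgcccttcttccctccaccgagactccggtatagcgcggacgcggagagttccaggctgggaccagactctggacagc
Gbp2: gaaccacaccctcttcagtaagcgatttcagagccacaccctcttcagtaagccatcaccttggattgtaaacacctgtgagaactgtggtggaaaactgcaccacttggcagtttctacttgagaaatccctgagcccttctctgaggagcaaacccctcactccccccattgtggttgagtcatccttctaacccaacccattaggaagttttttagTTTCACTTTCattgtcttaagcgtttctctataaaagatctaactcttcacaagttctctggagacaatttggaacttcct
Ifih1: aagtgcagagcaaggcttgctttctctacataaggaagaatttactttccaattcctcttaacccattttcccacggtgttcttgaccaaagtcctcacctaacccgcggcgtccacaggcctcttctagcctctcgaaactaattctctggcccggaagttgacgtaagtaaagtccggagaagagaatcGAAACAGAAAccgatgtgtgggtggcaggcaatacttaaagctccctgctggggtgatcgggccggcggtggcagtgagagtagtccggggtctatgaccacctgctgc
Oas1a: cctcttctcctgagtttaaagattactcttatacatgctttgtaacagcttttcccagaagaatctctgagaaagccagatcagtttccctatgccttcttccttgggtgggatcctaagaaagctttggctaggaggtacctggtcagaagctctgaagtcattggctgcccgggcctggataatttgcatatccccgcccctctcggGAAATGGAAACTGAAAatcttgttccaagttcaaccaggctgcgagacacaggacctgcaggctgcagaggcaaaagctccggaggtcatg

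The windows lie at chr20:4668494-4668793, minus strand (Tap1), chr2:234005477-234005776, plus strand (Gbp2), chr3:67683919-67684218, minus strand (Ifih1) and chr12:41330216-41330515, plus strand (Oas1a). The match lies at -121 to -112 in Tap1, -31 to -22 in Gbp2 and -59 to -50 in Ifih1, and Oas1a has overlapping matches at -41 to -32 and -35 to -26. Of the 9 called interferon-response genes with a window 7 held the motif, as did 25 of the 36 tested members with a window, against 2.93% of all tested genes. A match describes the letters only and is not a shown binding site. AAGGTCA, a nuclear receptor half-site with its extension, was held by 0 of the 5 called fatty acid genes with a window. It was held by 2 of the 32 tested members with a window and by 2.78% of all tested genes. At such a share, 5 genes are too few to show a lack of the motif.

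Cell cycle genes gave the most falls of the 25 pathway lists. Of 60 listed genes of DNA replication and mitosis, 44 were in both tables and tested, and 28 of them fell while 0 rose, against 2.59% of all genes called lower. Their median log2 difference was -1.07. The median of the same 44 genes was 0.71 for MR 2 weeks minus Sham and -0.34 for MR 20 weeks minus Sham. A further 11 list members were listed in the 2-week table only and were not tested, and the counts describe only members that both tables list. Members low at MR 20 weeks could be tested only where a Sham library reached about 31 reads, which favours Sham above MR 20 weeks.

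Mki67 (chr1:207993895-208020455, minus strand on rn6) encodes Ki-67, a protein of the chromosome surface that marks dividing cells. Its level was 21.2, 23.8, 12.8 and 30.7 in the MR 2 weeks libraries and 2.88, 3.44, 2.54, 3.74 and 2.96 at MR 20 weeks. Sham libraries held 3.62, 9.95, 9.12, 8.99 and 6.24. Every 2-week MR library was above every Sham and every 20-week library. The mean fell 7.11-fold, from 22.1 ± 7.38 (SD, n = 4) to 3.11 ± 0.475 (SD, n = 5), with a log2 difference of -2.44 ± 0.25 (SE) and adjusted p = 0.000448. The largest adjusted p with any 1 MR library left out was 0.00424.

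Cenpf, a kinetochore protein gene, was at 5.05, 7.94, 4.49 and 10.6 at 2 weeks and at 1.25, 0.339, 0.583, 0.527 and 0.52 at 20 weeks. Top2a, the topoisomerase that untangles DNA before division, was at 5.83, 10.3, 5.71 and 10.5 and then at 1.29, 1.31, 0.159, 1.1 and 0.988. The lowest Top2a library, MR 20 weeks replicate 3, rests on 3 reads. For neither gene did the MR groups overlap, and the log2 differences were -2.25 ± 0.25 and -2.20 ± 0.27 (SE; adjusted p 0.000659 and 0.000774, limma). Kif20a, a motor of cytokinesis, fell by 1.67 and Lmnb1, which encodes lamin B1 of the nuclear envelope, fell by 1.37 on the log2 scale.

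Ccnd1 encodes cyclin D1, which takes cells from rest into the cycle. Its level was 130.4, 122, 96.8 and 128 at 2 weeks and 52, 47.2, 45.9, 50.6 and 40.9 at 20 weeks. Sham libraries lay between, at 63.5, 91, 116, 114 and 63.3, and overlapped the 2-week libraries. The log2 difference was -1.31 ± 0.18 (SE; adjusted p = 0.00144). In the called cell cycle genes the Sham mean was above the MR 20 weeks mean in 27 of 28 and above the MR 2 weeks mean in 0 of 28. The former count is partly built in by the listing rule, and both counts are favoured by the choice of genes that fell between the MR times. Cenpf and Top2a, for example, had at most 26 and 27 reads in an MR 20 weeks library and were listed through Sham libraries. Without each MR library in turn, between 22 and 27 list members were called lower, and 22 were called in every such fit. The heatmap of the called cell cycle genes shows each library.

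**Figure D1:**
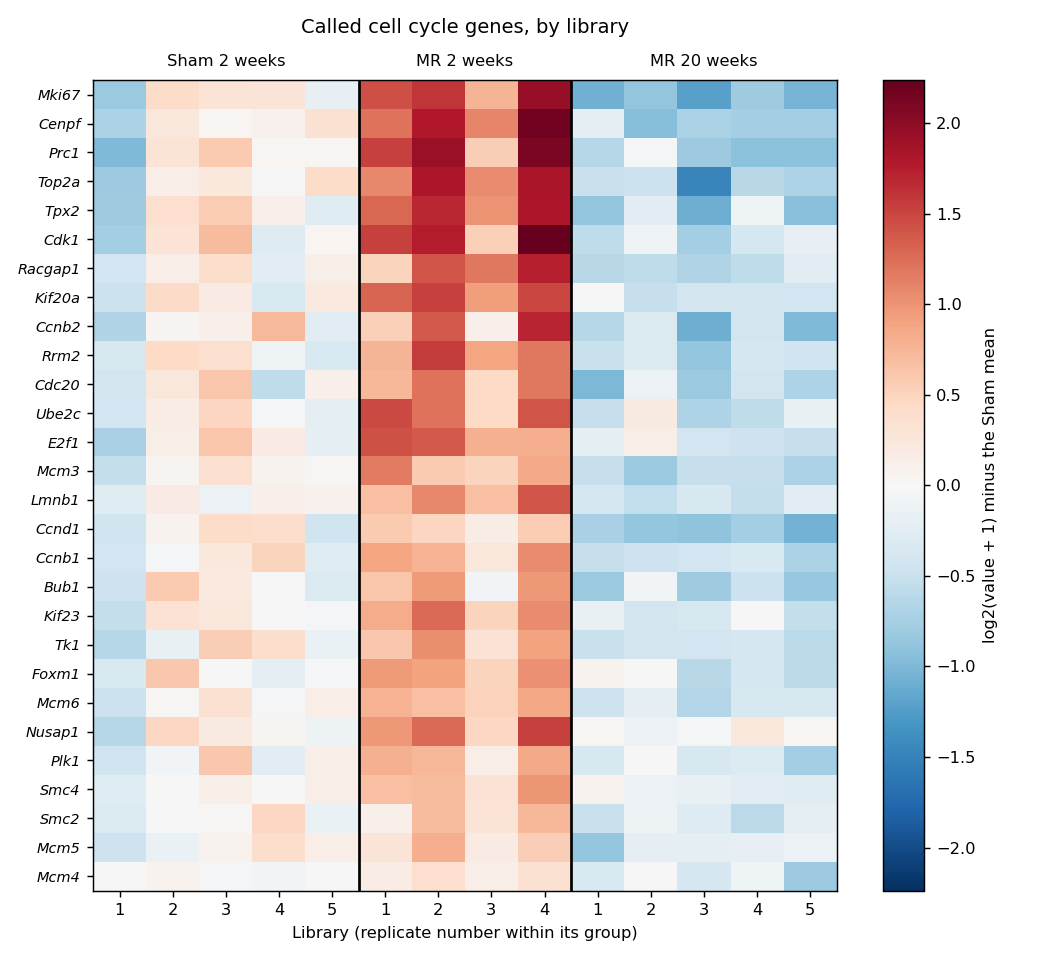
Heatmap of the 28 cell cycle genes called lower at MR 20 weeks (rows, ordered by log2 difference) in each of 14 libraries (columns, numbered within Sham 2 weeks, MR 2 weeks and MR 20 weeks). Colour is log2(value + 1) minus the Sham mean of the gene, red above and blue below; the 4 MR 2 weeks libraries are red for nearly all rows and MR 20 weeks libraries are mostly blue.

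Matrix genes fell as well. Of 42 tested genes of fibrillar collagens and interstitial matrix, 10 fell and 0 rose, with a list median of -0.59 beside -0.01 for all genes. That is 23.8% called lower, against 2.59% of all genes. Of 10 basement membrane genes 4 fell (Lama4, Col4a1, Col15a1 and Nid2) and 0 rose. Of 24 matrix proteases and inhibitors 2 fell, Adamts1 and Adamts2, and of 31 genes of TGF-beta and BMP signalling 0 passed in either direction, with Smad1 closest to the threshold (adjusted p = 0.0534).

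Col1a1 (chr10:82745801-82762791, plus strand on rn6) encodes a chain of type I collagen, the main fibre of scar and interstitium. Its level was 104, 546, 372 and 274 in the 2-week libraries and 51.2, 73.6, 62.8, 73.2 and 86.2 in the 20-week libraries. Sham libraries were at 111, 141, 647, 153 and 149.6, so Sham replicate 3 was above every MR library. The 20-week libraries were all below the 2-week ones, and the log2 difference was -1.997 ± 0.47 (SE; adjusted p = 0.026). It missed the threshold without MR 2 weeks replicate 2 or 3 or MR 20 weeks replicate 2, 3 or 4, the highest adjusted p being 0.0843, and was 0.00435 without Sham replicate 3.

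Col3a1, a chain of type III collagen, went from 359, 1323, 879 and 853 to 196, 278, 209, 224 and 228, with a log2 difference of -1.77 ± 0.35 (SE; adjusted p = 0.0121) and no adjusted p above 0.0428 when 1 MR library was left out. Fn1, which encodes the cell-binding glycoprotein fibronectin, was at 33.2, 104, 82.9 and 47.3 and then at 14.2, 14.6, 18.9, 9.06 and 14.3. Its Sham values were 21.2, 20.4, 130.2, 20.1 and 14.7, so the 2-week libraries and Sham replicate 3 were above all the rest. The log2 difference of Fn1 was -2.05 ± 0.49 (SE; adjusted p = 0.0276).

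Eln, the elastin gene (-1.62 log2), Col1a2, the other chain of type I collagen (-1.51), Vcan, which encodes the proteoglycan versican (-1.42), and Sparc, a collagen-binding matrix protein gene (-0.81), also fell. Timp1, an inhibitor of matrix metalloproteases, was at 9.07, 21.9, 22.9 and 8.35 and then 4.7, 5.62, 4.34, 3.79 and 3.02, a log2 difference of -1.53 ± 0.36 (SE; adjusted p = 0.0257). Thbs1, which encodes the matricellular protein thrombospondin 1, had the largest fall of the members that passed, at -2.15 ± 0.40 (SE; adjusted p = 0.00776), but its groups overlapped: MR 20 weeks replicate 5 was at 15.9 and MR 2 weeks replicate 4 at 14.2. Postn, the periostin gene of activated fibroblasts, was at 10.1, 45.5, 15.9 and 16.8 and then 5.37, 6.5, 1.75, 1.87 and 3.02 and did not pass (log2 difference -2.20 ± 0.72, adjusted p = 0.0873); it passed without Sham replicate 3 (0.0112). Calls of Fn1, Col1a2, Eln, Timp1 and Loxl2, a collagen crosslinking enzyme gene, were lost without MR 2 weeks replicate 2 or 3 and without MR 20 weeks replicate 4, with adjusted p values up to 0.0886; that of Eln was lost without MR 2 weeks replicate 4, and several were lost without MR 20 weeks replicate 2 or 3. Counts of called matrix genes ranged from 4 to 17 over the fits with 1 MR library left out.

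In the basement membrane, Lama4, a laminin chain of vessel walls, fell from 150.5, 136, 130.1 and 161 to 91.9, 95.8, 86.3, 101 and 88.5 without overlap (log2 difference -0.63 ± 0.11, SE; adjusted p = 0.00579). Col4a1, a chain of type IV collagen, fell by 0.70 on the log2 scale, with MR 20 weeks replicate 4 at 285.8 just under the lowest 2-week value of 286.4. The call of Col4a1 was lost without MR 2 weeks replicate 2 or 4 or MR 20 weeks replicate 2 or 3 (highest adjusted p 0.0626). Nid2, Col15a1 and Adamts2 were not called without MR 20 weeks replicate 2 (0.0537, 0.0737 and 0.105), and Col15a1 and Adamts2 also not without MR 2 weeks replicate 2, 3 or 4. Adamts1, a protease that cuts versican, went from 104, 108, 144 and 56.8 to 37.6, 27.9, 31.7, 29.2 and 60.2 (log2 difference -1.43 ± 0.27, SE; adjusted p = 0.0082), with an overlap of the groups through MR 2 weeks replicate 4 and MR 20 weeks replicate 5.

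Markers of stromal and immune cells were measured beside these genes. Of 16 fibroblast markers 5 fell (Col1a1, Col1a2, Col3a1, Fap and Vim) and 1, Gsn, rose. These shares of 31.25% and 6.25% stand beside 2.59% and 1.38% of all genes. Estimates were above 0 for 6 markers and below 0 for 10, with a median of -0.20. Col1a1, Col1a2 and Col3a1 are also counted in the interstitial matrix list. Fap and Gsn are named after their values were seen. With 1 MR library left out 1 to 5 markers were called lower, and only Col3a1 and Gsn were called in each of those fits; Fap was lost without MR 2 weeks replicate 3 or 4 or MR 20 weeks replicate 3 or 4 and Vim without MR 20 weeks replicate 3 or 4 (up to 0.0571 and 0.0535). Pdgfra and Dcn, which define fibroblasts, were among the markers and neither passed. Rescaled over all 24 libraries, Pdgfra was at 32.1 ± 6.44 at MR 2 weeks (SD, n = 4) and 35.5 ± 2.685 at MR 20 weeks (SD, n = 5). Dcn had a log2 difference of 0.59 ± 0.24 (SE, adjusted p = 0.15, limma). The summed level of the 16 markers was 1804 to 3863 at MR 2 weeks, 2139 to 2664 at MR 20 weeks and 2427 to 4313 in Sham. None could be at 0 under the listing rule. Gsn, the actin-severing gelsolin gene, was at 430.1, 587, 587 and 820.2 at 2 weeks and at 1047, 1382, 1116, 1271 and 1177 at 20 weeks, without overlap (log2 difference 1.01 ± 0.18, SE; adjusted p = 0.0061). The part of the number of fibroblasts in the matrix result was not tested.

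Of 23 macrophage and monocyte markers 5 fell (Aif1, Ccl7, Cd14, Lyve1 and Spi1) and the estimate was below 0 for all 23, with a median of -0.70. The share called lower was 21.7%, against 2.59% of all genes. Their summed level was 254.9 to 408.1 at MR 2 weeks, 142.3 to 260.0 at MR 20 weeks and 177.7 to 382.0 in Sham. A value of 0 was not possible under the listing rule. Lyve1, a receptor of resident macrophages and lymphatic vessels that is named after its values were seen, went from 23.7, 27.3, 30.5 and 19.4 to 7, 14.6, 14.8, 11 and 15.2 (log2 difference -0.98 ± 0.25, SE; adjusted p = 0.0353). None of the 5 was called in every fit with 1 MR library left out, and between 0 and 6 macrophage markers were called lower in those fits. Of 18 endothelial markers 0 passed and 16 were below 0; of 11 lymphocyte markers 0 passed, with sums of 23.9 to 33.1 and 23.9 to 32.3 at 2 and 20 weeks. The parts of these cell types in the falls were not tested.

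Interferon-response genes were the third group of falls. These genes answer type I and II interferons, and their products sense foreign RNA, block viral replication or load peptides for antigen presentation. Of 46 tested, 13 fell and 0 rose, with 44 estimates below 0 and a median of -0.50. The share called lower was 28.3%, against 2.59% of all genes. The median of the list was 0.15 for MR 2 weeks minus Sham and -0.38 for MR 20 weeks minus Sham. In each of the 13 called genes the Sham mean was above the MR 20 weeks mean, which the choice of genes that fell favours. Of all 260 falls, only 2 had a Sham mean below the MR 20 weeks mean.

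Mx2 (chr11:38035513-38059580, plus strand on rn6), which encodes an interferon-induced GTPase with antiviral activity, was at 29.8, 29.5, 50.9 and 34 at 2 weeks and 12.5, 11.1, 22, 11.3 and 9.93 at 20 weeks. Sham libraries held 14.2, 27.1, 25.4, 23.2 and 27.2. The MR groups did not overlap, and the log2 difference was -1.39 ± 0.23 (SE; adjusted p = 0.00453). Tap1, a subunit of the peptide transporter of antigen presentation, varied little within a group, with 23.3, 22.8, 22.8 and 22.5 at 2 weeks and 15.3, 13.7, 14.2, 15 and 13.7 at 20 weeks. Sham libraries held 19, 22.4, 21.4, 21 and 19.2. Its 20-week libraries were below every other library, with a log2 difference of -0.63 ± 0.10 (SE; adjusted p = 0.00304).

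Gbp2, an interferon-induced guanylate-binding protein gene, fell from 15.6, 19.5, 19.4 and 22.1 to 7.67, 11.4, 9.38, 8.29 and 8.89. Ifih1, the gene of the RNA sensor MDA5, fell from 10.9, 11.7, 10.6 and 12.4 to 6.81, 6.21, 7.15, 6.76 and 7.64. Oas1a, an oligoadenylate synthetase gene that activates RNA decay in infected cells, fell from 5.12, 4.99, 6.39 and 4.51 to 2.13, 1.39, 3.05, 3.24 and 1.52. None of these 3 overlapped between the MR groups, as was so for 354 of the 398 called genes. The log2 differences were -0.99 ± 0.19, -0.65 ± 0.13 and -0.97 ± 0.20 (SE, adjusted p 0.0106, 0.0106 and 0.0147, limma). Oas1a missed the threshold without MR 2 weeks replicate 3 (0.0523). The number of interferon-response genes called was 5 to 13 with 1 MR library left out, and 4 were called in each of those fits.

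Immediate early and acute stress genes, which answer growth factors, cytokines and stretch within minutes to hours, had 6 falls and 1 rise among 43 tested, with a median of -0.55. The shares were 13.95% lower and 2.33% higher, against 2.59% and 1.38% of all genes. Socs3, an inhibitor of cytokine signalling through STAT3, was at 16.1, 19.1, 22.2 and 5.95 at 2 weeks and 3.84, 1.89, 3.34, 3.12 and 5.98 at 20 weeks. The groups touched, since MR 2 weeks replicate 4 (5.95) was no higher than MR 20 weeks replicate 5 (5.98). The log2 difference was -1.79 ± 0.33 (SE; adjusted p = 0.00752), and no single MR library carried the call (highest adjusted p 0.0335). Fosl1 and Fosl2, subunits of the AP-1 transcription factor (-0.87 and -0.96 log2), and Rnd3, a small GTPase of the actin skeleton (-0.71 log2), also fell. Gadd45b, a stress-induced growth arrest gene, rose by 0.83. These 4 calls were each lost without MR 2 weeks replicate 3 or MR 20 weeks replicate 2 or 4 (adjusted p up to 0.0875), and those of Fosl1, Fosl2 and Rnd3 also without MR 2 weeks replicate 2 or MR 20 weeks replicate 3. Fos and Myc, named after their values were seen, also passed (-1.57 and -1.08 log2), but both calls were lost without MR 2 weeks replicate 1, 2 or 3 or MR 20 weeks replicate 2, 3 or 4, that of Fos also without MR 20 weeks replicate 1 and that of Myc also without MR 20 weeks replicate 5 (up to 0.0924 and 0.108). With 1 MR library left out 1 to 10 genes of the list were called lower. Bhlhe40, a repressor that acts in the clock and in the response to low oxygen, fell from 60.2, 57.8, 65.4 and 42.5 to 22.2, 17.5, 24.3, 31 and 38.1 (log2 difference -1.09 ± 0.19, SE; adjusted p = 0.00603) and was the only 1 of 17 clock genes to pass. The hour of day at which tissue was taken is not given in the labels.

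**Figure D2:**
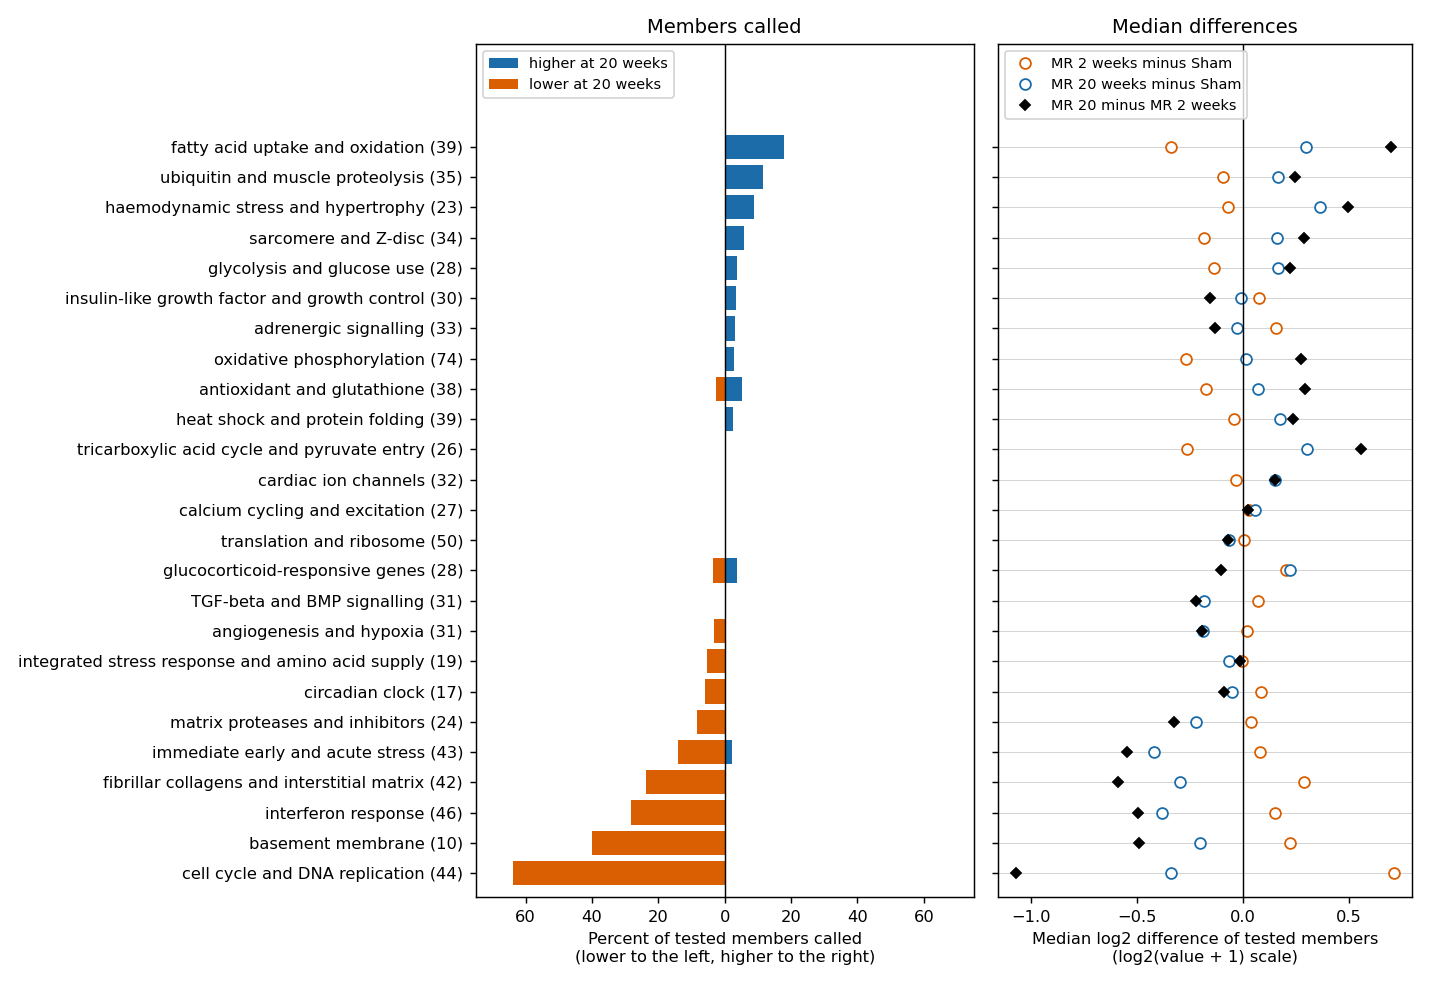
Left, percent of the tested members of each of 25 pathway lists (number tested in brackets) called higher (blue, to the right) or lower (orange, to the left) at MR 20 weeks than at MR 2 weeks. Right, median log2 difference of the tested members for MR 20 minus MR 2 weeks (black diamonds) and for each MR time minus the Sham 2 weeks libraries (open circles); cell cycle genes have the largest share called lower, 63.6%, and fatty acid genes the largest share called higher, 17.9%.

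Genes of fatty acid use rose. Of 39 tested members of fatty acid uptake and oxidation, 7 rose, among them Acads, Cd36, Cpt1b, Pnpla2, Ucp2 and Ucp3, and 0 fell, against 1.38% of all genes called higher. The estimate was above 0 for 37 of 39, with a median of 0.70. The same median was -0.34 for MR 2 weeks minus Sham and 0.30 for MR 20 weeks minus Sham, so the Sham level lay between the MR times. Without rescaling 4 were called, and with 1 MR library left out 3 to 10.

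Ucp3 (chr1:165482912-165495897, plus strand on rn6) encodes a mitochondrial carrier of muscle that is induced when fatty acids are burned. Its level was 12.7, 4.49, 12 and 9.28 at 2 weeks and 44.9, 39.3, 37.1, 23.4 and 35.4 at 20 weeks, with 9.85, 24.4, 9.84, 11.1 and 10.2 in Sham. The MR groups did not overlap, and the mean rose 3.74-fold, with a log2 difference of 1.85 ± 0.29 (SE; adjusted p = 0.00316). Its neighbour Ucp2 (chr1:165506375-165512745, plus strand on rn6), which is more broadly expressed, went from 60.1, 137, 72.3 and 108 to 165, 242, 249.5, 195 and 226 (log2 difference 1.24 ± 0.28, SE; adjusted p = 0.0234). The call of Ucp2 was lost without MR 2 weeks replicate 1 or 3 or MR 20 weeks replicate 2, 3 or 4 (up to 0.079).

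Cpt1b, the carnitine transferase that admits long-chain fatty acids to muscle mitochondria, was narrow in both groups, at 173, 183, 170.1 and 182 and then 292, 289.8, 270.4, 274 and 271. Sham libraries held 242, 219.6, 167, 212 and 252, between and partly overlapping the earlier group. The log2 difference of Cpt1b was 0.66 ± 0.12 (SE; adjusted p = 0.00776). Cd36, which takes fatty acids up at the cell surface, went from 208, 316, 253 and 336 to 387, 439, 463, 458 and 501 without overlap (log2 difference 0.71 ± 0.18, SE; adjusted p = 0.0352; 0.0648 without rescaling). Cd36 missed the threshold without MR 2 weeks replicate 1 or 3 and without MR 20 weeks replicate 2, 3, 4 or 5 (up to 0.0959). The calls of Acads and Pnpla2 were each lost without MR 2 weeks replicate 3 or MR 20 weeks replicate 2, 3 or 4, and in other such fits (up to 0.0936 and 0.109). Pdk4, which restrains pyruvate entry when fat is burned, did not pass (1.30 ± 0.40 log2, SE; adjusted p = 0.0728).

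The respiratory chain and citric acid cycle leaned the same way with few calls. Of 74 oxidative phosphorylation genes 71 had an estimate above 0, with a median of 0.27, but only Ndufa10 and Ndufv1, both subunits of complex I, rose, a share of 2.70% beside 1.38% of all genes. Of 26 genes of the citric acid cycle and pyruvate entry all 26 were above 0, with a median of 0.56, and 0 passed; Mdh2, the mitochondrial malate dehydrogenase gene, was at 239, 586, 412 and 519 and then 595, 662, 691, 799.7 and 679.8 (adjusted p = 0.0693). MR 2 weeks replicate 1 was the lowest 2-week library for Mdh2, Ndufa10 and Ndufv1. Without rescaling neither Ndufa10 (0.0603) nor Ndufv1 (0.0761) passed. Both calls were also lost without MR 2 weeks replicate 1 or 3 or MR 20 weeks replicate 2, 3 or 4 (up to 0.0924 and 0.113), and that of Ndufv1 also without MR 2 weeks replicate 2 or 4 or MR 20 weeks replicate 1. Of 28 glycolysis and glucose genes 1 rose, Pfkfb1, a regulator of glycolysis with low values (2.3, 0.842, 1.69 and 0.591, then 5.23, 3.64, 3.23, 3.36 and 1.72; adjusted p = 0.0492, and 0.108 without MR 20 weeks replicate 2), and Ldhb did not pass (0.64 ± 0.21 log2, SE; adjusted p = 0.0844).

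**Figure D3:**
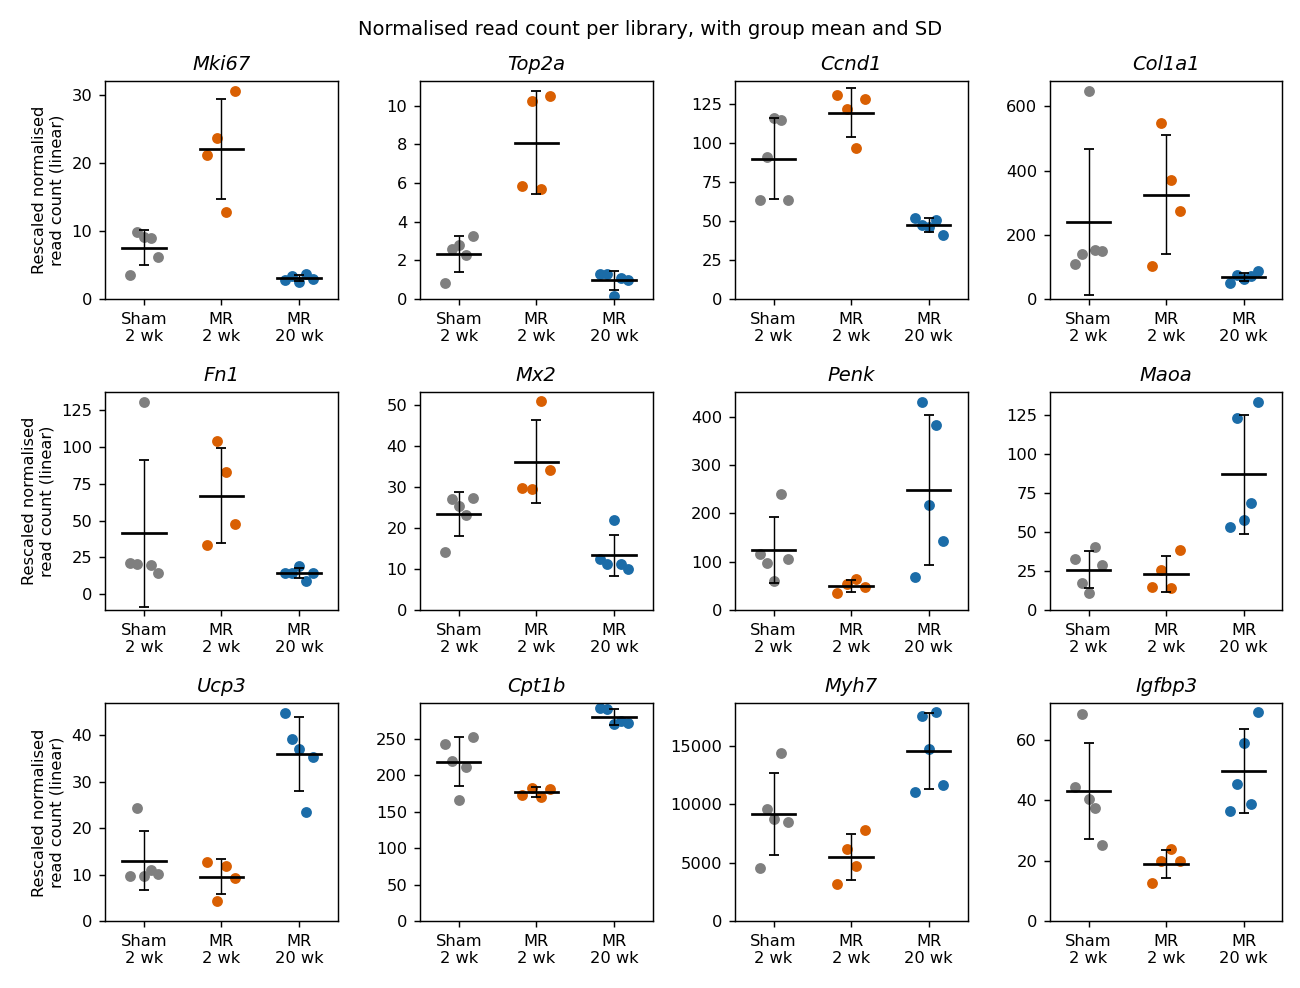
Rescaled normalised read count (linear axis) of 12 named genes in each library of Sham 2 weeks (grey), MR 2 weeks (orange) and MR 20 weeks (blue); the bar is the group mean and the whisker its SD. In all 12 panels the orange and blue points do not overlap, and for Col1a1 and Fn1 a single Sham library stands above the rest. The panels are a choice among named genes, and no overlap was a condition for those named as largest rises or falls. Among all 10029 genes tested, 1053 (10.5%) had no overlap of the MR groups.

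Among genes of the contractile apparatus and of haemodynamic stress, Myh7 had the largest rise that passed. Myh7 (chr15:33634422-33656090, minus strand on rn6) encodes the slow beta myosin heavy chain, which the rat ventricle uses before birth and returns to under load. Its level was 3227, 6178, 4764 and 7835 at 2 weeks and 11030, 17570, 14730, 17910 and 11620 at 20 weeks, with 4564, 9606, 8730, 14420 and 8494 in Sham. The MR groups did not overlap, but Sham overlapped both. The log2 difference was 1.45 ± 0.32 (SE; adjusted p = 0.0198), and it missed the threshold without MR 2 weeks replicate 3 or MR 20 weeks replicate 2 or 4 (up to 0.0561). Myh6, the fast alpha chain, was at 18920, 16590, 22420 and 17480 and 13700, 13050, 17860, 15210 and 22190 and did not pass (log2 difference -0.22 ± 0.22, SE; adjusted p = 0.573).

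Ankrd1, a stretch-responsive protein gene of the sarcomere, went from 2259, 2641, 2178 and 4220 to 3792, 6101, 5113, 5250 and 5552 (log2 difference 0.91 ± 0.23, SE; adjusted p = 0.0355). MR 2 weeks replicate 4 reached into the 20-week range, the gene missed the threshold without rescaling (0.0588), and its call was lost without any 1 of 7 MR libraries, namely MR 2 weeks replicates 1 to 3 and MR 20 weeks replicates 2 to 5 (up to 0.103). Myot, a Z-disc protein gene, rose by 0.97 on values of at most 4.85 (adjusted p = 0.0452, 0.0648 without rescaling and up to 0.121 with 1 MR library left out). Of 23 haemodynamic stress genes 2 rose (Myh7 and Ankrd1), and of 34 sarcomere and Z-disc genes 2 rose (Myh7 and Myot), with 0 falls in either list. These shares of 8.70% and 5.88% stand beside 1.38% of all genes, and Myh7 counts in both lists.

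The natriuretic peptide genes, whose hormones answer wall stretch, did not pass. Nppa was at 163, 84.7, 37.4 and 1186 and 639.8, 1397, 217, 331 and 492, and Nppb at 178, 232, 219 and 412 and 352, 504, 229, 326 and 208. In both the 2-week library of replicate 4 lay within the 20-week range, and the log2 differences were 1.66 ± 0.78 and 0.32 ± 0.36 (SE; adjusted p 0.208 and 0.627). Nppa belongs also to the atrial markers, of which 1 of 10, Stard10, rose, and 9 were above 0 with a median of 0.69. The call of Stard10 was lost without MR 2 weeks replicate 1 or 2 or MR 20 weeks replicate 2 or 4 (up to 0.0622). The atrial markers summed to 791.4 to 2521 at 2 weeks, 1678 to 2954 at 20 weeks and 849.7 to 1820 in Sham, and the listing rule allows no 0. The labels do not name the chamber, and the part of atrial tissue in these values was not tested. Acta1, the skeletal alpha-actin gene, had a log2 difference of 0.31 ± 0.32, Des, the desmin gene, of 0.45 ± 0.24, and Atp2a2, the calcium pump of the sarcoplasmic reticulum, of 0.55 ± 0.31 (SE; adjusted p 0.588, 0.269 and 0.3), so none of the 3 was distinguished from no difference. Of 27 calcium cycling genes and 32 ion channel genes 0 passed; Pln (phospholamban, 0.0838) and Scn4b (0.0619) had adjusted p values above the threshold.

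Outside the lists named above, the largest rises among called genes with no overlap of the MR groups and an MR mean no lower than the median of tested genes were in Penk, Maoa, Dusp15 and Pllp. Penk (chr5:17056419-17061362, minus strand on rn6), the proenkephalin gene, encodes the precursor of opioid peptides that the heart also makes. Its level was 35.9, 53.4, 65.2 and 47.9 at 2 weeks and 69, 431, 217, 382 and 143 at 20 weeks, so the later group was wide and its lowest library, 69.0, was close to the highest 2-week library, 65.2. The log2 difference was 2.02 ± 0.45 (SE; adjusted p = 0.0231), lost without MR 2 weeks replicate 1 or MR 20 weeks replicate 2, 3 or 4 (up to 0.0596). Maoa (chrX:6554698-6620723, minus strand on rn6) encodes monoamine oxidase A, which breaks down noradrenaline and serotonin and forms hydrogen peroxide. It was at 14.6, 26, 14.3 and 38.6 and then 53.1, 123, 57.5, 68.6 and 133, with 32.8, 17.3, 11, 40.2 and 28.7 in Sham, a log2 difference of 1.86 ± 0.38 (SE; adjusted p = 0.0147, and 0.0545 without MR 2 weeks replicate 3). Of 33 adrenergic signalling genes Maoa was the only 1 to pass, a share of 3.03% beside 1.38% of all genes called higher.

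Dusp15, a dual-specificity phosphatase gene, was at 7.11, 3.01, 3.65 and 5.19 at 2 weeks and 20.9, 26.7, 17.1, 18.6 and 12.4 at 20 weeks. In Sham it was at 6.55, 5.36, 2.82, 2.76 and 2.82. The 20-week libraries were above all others, with a log2 difference of 1.82 ± 0.26 (SE; adjusted p = 0.00203), and Dusp15 also passed for MR 20 weeks minus Sham (log2 2.02). Pllp, which encodes the membrane protein plasmolipin, went from 5.64, 6.53, 11.6 and 10.4 to 16.9, 38.8, 38.3, 37.5 and 21.4 (log2 difference 1.70 ± 0.29, SE; adjusted p = 0.00453). Card9, an adaptor of innate immune signalling, went from 22.1, 8.46, 9.09 and 11 to 27.7, 37.2, 33, 29.2 and 22.6 (log2 difference 1.26 ± 0.23, SE; adjusted p = 0.0063). For these 3 genes the call held without any single MR library (highest adjusted p 0.00966, 0.0208 and 0.0281).

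Igfbp3, which binds insulin-like growth factors in blood and tissue, was one of the genes in which the 2-week MR libraries stood lowest. Its level was 12.7, 20, 23.8 and 19.9 at MR 2 weeks and 36.4, 45.3, 58.9, 38.7 and 69.3 at MR 20 weeks. Sham held 44.5, 68.6, 40.4, 37.5 and 25.2. Every 2-week MR library was below every other library, and the log2 differences were 1.32 ± 0.25 (SE; adjusted p = 0.00963) for MR 20 minus MR 2 weeks, -1.10 for MR 2 weeks minus Sham and 0.23 for MR 20 weeks minus Sham. Gpd1, the cytosolic glycerol-3-phosphate dehydrogenase gene, rose by 1.16, Art1, an ADP-ribosyltransferase gene of muscle, by 1.20, and Ppp1r3c, which targets a phosphatase to glycogen, by 1.37 on the log2 scale. The call of Ppp1r3c was lost without any 1 of 7 MR libraries, namely MR 2 weeks replicates 1 to 3 and MR 20 weeks replicates 2 to 5 (up to 0.09).

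Genes of protein clearance gave 4 rises and 0 falls among 35 tested members of ubiquitin and muscle proteolysis. The share called higher was 11.4%, beside 1.38% of all genes. All 4 belong to autophagy: Gabarapl1 and Map1lc3b coat the autophagosome, Sqstm1 carries cargo to it and Bnip3 marks mitochondria for it. The same list holds Map1lc3a, Bnip3l, Becn1 and Ulk1, also autophagy genes, and none of them was called. Map1lc3b was at 88.8, 88.7, 88.2 and 91 and then 129, 154, 133, 134 and 133 without overlap (log2 difference 0.61 ± 0.13, SE; adjusted p = 0.0194), and Gabarapl1 at 59.1, 62.4, 70.7 and 68.3 and then 89.8, 106, 96.3, 88.2 and 108 (0.58 ± 0.12 log2, SE; adjusted p = 0.0194). Without rescaling Map1lc3b (0.0536), Sqstm1 (0.0748) and Bnip3 (0.068) missed the threshold. Without MR 20 weeks replicate 2 none of the 4 passed (0.0534 for Gabarapl1, 0.0537 for Map1lc3b, 0.0997 for Sqstm1 and 0.111 for Bnip3), and without MR 2 weeks replicate 3 the calls were lost for Map1lc3b (0.0523), Sqstm1 (0.0853) and Bnip3 (0.112). Sqstm1 and Bnip3 were also lost in most other fits with 1 MR library left out (up to 0.0997 and 0.118). Bag3, a co-chaperone that sends damaged sarcomere proteins to autophagy, was the only 1 of 39 heat shock genes to pass (0.62 ± 0.16 log2, SE; adjusted p = 0.0385, 0.0688 without rescaling and lost without each MR library except MR 20 weeks replicate 1, up to 0.0932).

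Other lists gave few calls, to be read beside 1.38% of all genes called higher and 2.59% called lower. Of 38 antioxidant genes Gsta1, a glutathione transferase gene, and Ucp2 rose and Mt2A, a metallothionein gene, fell (0.83 and -1.05 log2 for Gsta1 and Mt2A). Of 28 glucocorticoid-responsive genes Klf15, a regulator of amino acid and lipid use in muscle, rose by 0.71 and Mt2A fell. Of 19 genes of the integrated stress response and amino acid supply Aldh18a1, of proline synthesis, fell by 0.66, and of 31 genes of angiogenesis and hypoxia Apold1, a gene of activated endothelium, fell by 1.01. All 5 calls were lost without MR 2 weeks replicate 3 and without MR 20 weeks replicate 4 (adjusted p up to 0.124), and that of Klf15 was lost without rescaling (0.0804). Of 50 genes of translation and ribosome 0 passed, with a median of -0.07.

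Tubb6, Tuba1c and Nes, genes of the cell skeleton, were in the 12 largest falls among genes chosen by the same limits on overlap and level. Tubb6, a beta-tubulin gene, was at 19.1, 28.9, 21.9 and 24.7 at 2 weeks and 5.75, 5.87, 5.3, 6.23 and 10.1 at 20 weeks, without overlap (log2 difference -1.70 ± 0.26, SE; adjusted p = 0.00275). Tuba1c, an alpha-tubulin gene, fell by 1.52 ± 0.22 (SE; adjusted p = 0.00203); tubulin genes have near-identical copies and reads may have been shared among them. Nes encodes nestin, an intermediate filament of progenitor, endothelial and smooth muscle cells, and went from 117, 76.8, 104 and 90.9 to 43.3, 30.8, 45.2, 41.8 and 35.4 (-1.28 ± 0.21 log2, SE; adjusted p = 0.00443). Itpkc, an inositol phosphate kinase gene, fell by 1.23, a call lost without MR 2 weeks replicate 1, 2 or 3 or MR 20 weeks replicate 2, 3 or 4 (up to 0.0982).

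The Sham level lay between the MR means in most called genes. Its mean was between them in 131 of 138 rises and 256 of 260 falls. Called genes were chosen for MR means that lie far apart, which by itself favours a Sham mean between them. The share over all genes tested was 57.1%, but most of those genes were not called, so it is not a fair background for these counts. Whether more called genes than this choice alone would give had such a Sham mean was not tested. Rises had a median of -0.31 for MR 2 weeks minus Sham and 0.37 for MR 20 weeks minus Sham, and falls had 0.42 and -0.45. These comparisons share libraries with the one that chose the genes, so the values are set side by side as a description.

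The same direction was then looked for in libraries that had no part in the choice of genes, MR 40 weeks minus MR 10 weeks. There, 29% of 9962 genes were higher and 27.8% were lower at 40 weeks. Of the 138 genes raised from 2 to 20 weeks, 24.6% were higher and 16.7% lower at 40 than at 10 weeks. Of 236 tested genes that fell from 2 to 20 weeks, 24.6% were lower and 14.8% higher. Neither share exceeds its background. Of 18 called cell cycle genes tested there, 1 was higher and 1 lower, with a median of -0.08.

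Single genes took different courses, on values rescaled over all 24 libraries. Mki67 was at 21.9 ± 7.32 at MR 2 weeks (SD, n = 4) and already at 3.45 ± 1.04 at 10 weeks, then 3.07 ± 0.466 at 20 and 2.79 ± 0.546 at 40 weeks (SD, n = 5 each), against 7.47 ± 2.57 in Sham. The 3 later means differ by no more than their spread. Myh7 was at 5430 ± 1952, 11800 ± 3621, 14360 ± 3166 and 17120 ± 3393, with overlapping spreads from 10 weeks on. Maoa had its highest mean at 40 weeks, 284 ± 182, above 85.8 ± 37.4 at 20 and 55.4 ± 25.9 at 10 weeks (log2 difference 2.21 for 40 minus 10 weeks, adjusted p = 0.000274, limma). Ucp3 was highest at 20 weeks, 35.5 ± 7.81, with 17 ± 4.25 at 10 and 15 ± 2.82 at 40 weeks, and the latter pair did not differ beyond their spread (adjusted p = 0.463, limma). Thbs1, which fell to 6.4 ± 5.2 at 20 weeks from 29.1 ± 10.1, was at 45.8 ± 6.78 at 40 weeks (log2 difference 1.98 for 40 minus 10 weeks, adjusted p = 6.19e-06, limma).

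**Figure D4:**
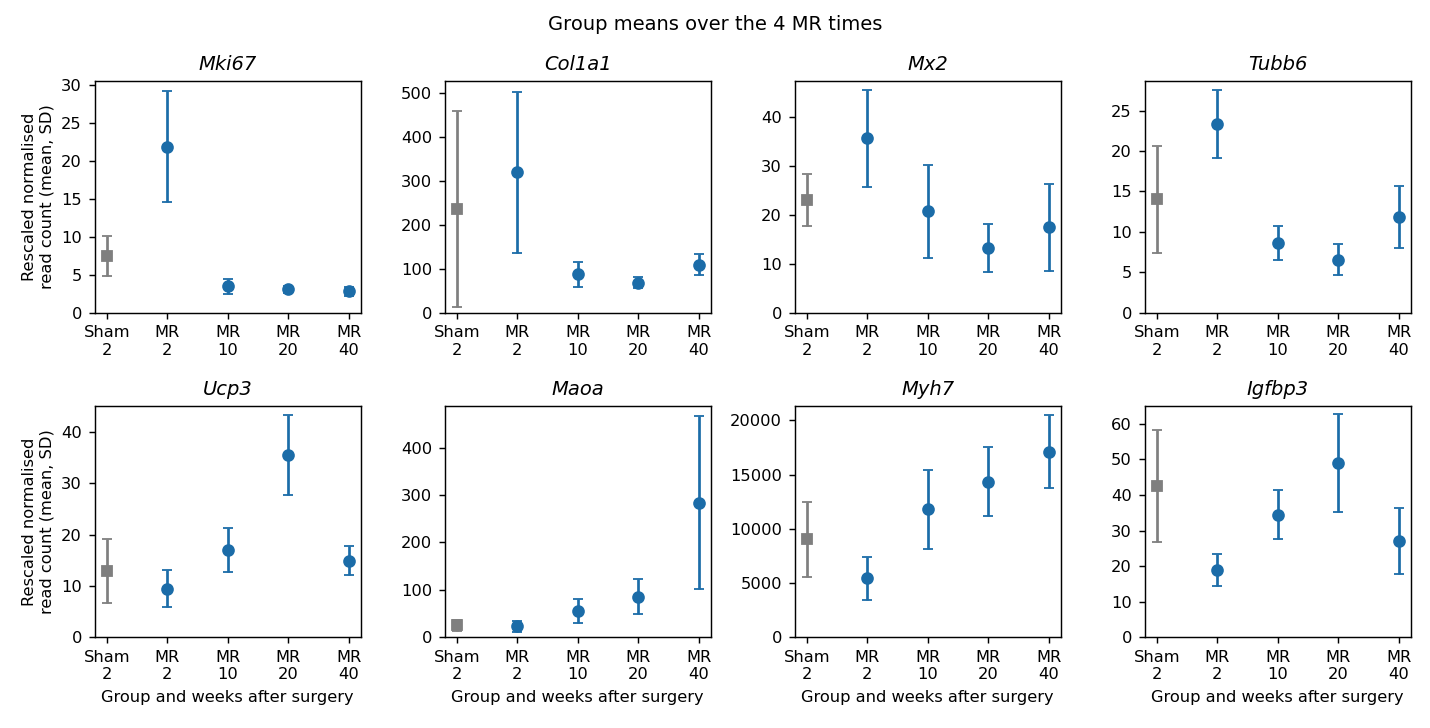
Mean and SD of the rescaled normalised read count of 8 named genes in Sham 2 weeks (grey square, n = 5) and MR at 2 (n = 4), 10, 20 and 40 weeks (blue circles, n = 5 each); groups are evenly spaced, not to time. Mki67 and Col1a1 are low from 10 weeks on, Maoa and Myh7 have their highest means at 40 weeks, and Ucp3 and Igfbp3 are highest at 20 weeks.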

How the data were processed

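RNA-seq of rat myocardium was used from the Sham 2 weeks, MR 2 weeks and MR 20 weeks libraries, with MR 10 and MR 40 weeks for the time course. Partek and the rat genome build rn6 are named per the submitters' processing notes; aligner, annotation, counting rule, strand setting and scaling: not given in the sources used here. Values in the deposited tables are signal: normalised gene counts that are never negative, with 1 table per MR time beside the same Sham libraries. Undoing 1 factor per library gave whole reads within 0.1 read for 97.4% to 97.5% of values. A gene is listed only with 1 or more reads in each library and 31 or more in its highest, so a gene silent in a library cannot be seen; the tables hold 0 genes of the mitochondrial chromosome. Positions on rn6 are as the tables give them, with the base convention of starts not stated.

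The 2-week and 20-week tables were joined on gene symbol (10187 shared, 246 and 88 in a single table). The Sham values came from the 2-week table; the copies of a Sham library in the other table differ by a constant (0.916 to 0.981). Libraries were rescaled with median-of-ratios factors against the geometric mean of each gene (0.928 to 1.13). Genes with a mean of at least 1 were tested as log2(value + 1) in a limma 3.58.1 fit (R 4.3.3) of 14 libraries in 3 groups, with trended empirical Bayes moderation, two-sided, Benjamini-Hochberg adjusted over all genes tested and called under 0.05. The fit was tested on simulated data in which only genes with high read counts were changed and all genes shared a common setting of spread. That test does not cover genes with low or widely spread values. MR 40 minus MR 10 weeks was a separate fit of those libraries. edgeR 4.0.16 and DESeq2 1.42.0 on recovered reads were alternatives chosen after seeing the data, as was leaving out Sham replicate 3.

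The members and the 37 gene lists (25 pathway, 12 cell marker) were chosen with earlier results of these data known. Named genes were the 12 largest rises and 12 largest falls among called genes with no overlap of the groups and an MR mean no lower than the median of tested genes, up to 5 members with the smallest p of each pathway list with a call (2 where none passed), and a panel of stress and remodelling genes (Nppa and Nppb; Myh6, Acta1 and Myh7; Des and Atp2a2; Timp1, Postn, Col3a1 and Col1a1; Cpt1b). Other called list members are named after their values were seen. Marker lists not described in the report gave these calls: smooth muscle 1 of 15 (Mcam lower), mast cell and granulocyte 1 of 8 (Kit lower), mesothelial 1 of 6 (Prg4 lower), all 3 lost in some fit with 1 MR library left out, and adipocyte, skeletal muscle and erythroid 0 of 5, 0 of 5 and 0 of 7. The insulin-like growth factor list gave 1 of 30, Igfbp3. Values of some named genes are not reported here.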

Additional observations from a re-analysis of the deposited data

Results flagged for a closer look

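For each named gene the libraries of MR 2 weeks (n = 4) and of MR 20 weeks (n = 5) were examined for 1 library far from the others, by the gap to the nearest library as a share of the group's range. Of 254 such groups 25 held one; chance alone gives about 1 in 20 groups, and genes that move together are not independent. Values are rescaled normalised read counts, with the nearest other library of the group beside each.

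Replicate 1 of MR 2 weeks lay far above the others in Angpt2 (9.61, nearest 7.51), and far below them in Bag3 (137, nearest 192) and Ndufv1 (409, nearest 514). Replicate 4 of MR 2 weeks lay far above the others in Hspb1 (228, nearest 184) and Nppa (1186, nearest 163), and far below them in Thbs1 (14.2, nearest 33.9). Replicate 1 of MR 20 weeks lay far above the others in Cenpf (1.25, nearest 0.583) and Kif20a (1.92, nearest 1.22), and far below them in Ldhb (2522, nearest 3147), Sdhb (444, nearest 517) and Sdhc (247, nearest 312). Replicate 2 of MR 20 weeks lay far above the others in Map1lc3b (154, nearest 134) and Myot (4.85, nearest 2.35), and far below them in Angpt2 (2.81, nearest 5.35). Replicate 3 of MR 20 weeks lay far above the others in Art1 (32.6, nearest 22.3) and Mx2 (22.0, nearest 12.5), and far below them in Top2a (0.159, nearest 0.988). Replicate 4 of MR 20 weeks lay far above the others in Col4a1 (286, nearest 225), and far below them in Eln (23.2, nearest 36.2). Replicate 5 of MR 20 weeks lay far above the others in Eef1a1 (572, nearest 500.2), Pde4b (8.11, nearest 5.09), Pdk4 (79.6, nearest 40.0), Thbs1 (15.9, nearest 5.47) and Tubb6 (10.1, nearest 6.23), and far below them in Klf15 (31.0, nearest 49.2).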

How the results depend on the processing

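Main counts were 398 called, 138 higher and 260 lower. They moved by more than 1.5 times with DESeq2 (938, 387 and 551), in a fit of all 24 libraries (880, 400 and 480) and with library weights (1462, 613 and 849); for rises alone without rescaling (73) and without Sham replicate 3 (220); and for falls alone at a mean of at least 5 (164). Leave-one-out ranges were 155 to 464, 38 to 167 and 115 to 297. The 28 cell cycle falls became 4 at a mean of at least 5, where fewer of these low genes were tested (22 to 27 leaving 1 library out). The 7 fatty acid rises became 4 without rescaling, 15 with all 24 libraries, 22 with weights, 16 with DESeq2 and 13 without Sham replicate 3 (3 to 10). The 10 interstitial matrix falls became 26 with weights and 16 with DESeq2 (4 to 17); the 13 interferon falls stayed within 1.5 times in all but leave-one-out fits (5 to 13). For 40 against 10 weeks, without rescaling, 34 raised genes called higher became 19 and 58 lowered genes called lower became 95 (31 to 35 and 39 to 62). Where not stated, the cause was not tested. edgeR called 398 genes, 370 of them shared with limma. Of 67 called named genes 54 kept the call under every alternative that keeps all MR libraries and gives the gene a value; 1 value changed sign, Acta1 with library weights (-0.10). At unadjusted p under 0.05 there were 2385 genes. Depth limits genes under about 31 reads in every library, which are not listed. No paired analysis was possible because replicate numbers were given in accession order and the labels pair no library of one time with one of another.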

Other observations

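Genes and groups below were picked after the values were seen, so they are descriptions. Actb, Fscn1, Tpm3, Marcksl1 and Dbn1, genes of the actin cytoskeleton outside the sarcomere, were called lower at MR 20 weeks than at MR 2 weeks; Gsn, which severs actin, was called higher (1.01 log2). Actb, the main non-muscle actin gene, was at 361, 393, 544 and 396 at 2 weeks and 214, 161, 221, 235 and 246 at 20 weeks. Its Sham values were 208, 331, 424, 309.8 and 316 (log2 difference -0.97 ± 0.19, SE; adjusted p = 0.0107, limma). Fscn1, which bundles actin in protrusions, went from 72.6, 62.2, 59.1 and 67.7 to 42.8, 28.4, 28.9, 34.5 and 28.5 (-0.9965 ± 0.15 log2, SE; adjusted p = 0.00256, limma). Tpm3, a tropomyosin gene with non-muscle products, went from 71.3, 53.3, 60.6 and 57.9 to 32.9, 31.7, 32.1, 31.1 and 37.1 (-0.86 ± 0.13 log2, SE; adjusted p = 0.00256, limma). For Actb, Fscn1 and Tpm3 the MR groups did not overlap and no call was lost when 1 MR library was left out. Marcksl1, a membrane-bound actin regulator, fell by 1.15 and Dbn1, the drebrin gene, fell by 0.94 on the log2 scale. Actin and tropomyosin genes have near-identical copies, and how the counting split reads among them is not given. Of 12 tubulin genes 3 were called lower, Tubb6, Tuba1c and Tubb5 (Tubb5 -0.71 ± 0.12 log2, SE).

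Genes that break down branched-chain amino acids and ketone bodies leaned upward: of 24 tested, 23 had an estimate above 0, 5 were called higher, among them Acad11, Auh, Bckdha and Dbt, and 0 lower, with a median of 0.75. Bckdha, a subunit of the dehydrogenase that commits branched-chain keto acids to oxidation, was at 94.6, 127, 108 and 93.8 and then 189.5, 170.4, 175, 318 and 128, with 174, 193, 159, 123 and 206 in Sham (log2 difference 0.83 ± 0.21, SE; adjusted p = 0.0393, limma). All 5 calls were lost without MR 2 weeks replicate 3 or MR 20 weeks replicate 2 or 4, with adjusted p values up to 0.132.

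A further 11 cell cycle genes are listed in the 2-week table and were not tested against 20 weeks. In that table, on the deposited scale, Birc5, the gene of the chromosomal passenger survivin, was at 2.34 ± 0.339 at MR 2 weeks (SD, n = 4) and 0.868 ± 0.535 in Sham (SD, n = 5), with ranges of 1.85 to 2.60 and 0.295 to 1.48. Melk, a mitotic kinase gene, was at 1.76 ± 0.608 and 0.475 ± 0.155. Ccna2, the cyclin A2 gene, was at 1.96 ± 1.24 and 0.500 ± 0.220. The mean of MR 2 weeks was above that of Sham in all 11 of these genes. That direction was favoured by the listing rule and is not a separate result. The 20-week table holds the same Sham libraries and does not list these genes, so MR 2 weeks values could bring them into the 2-week table.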
